A study of Mus musculus with 18 samples.

Results

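The expression of 10 genes of the antioxidant and NRF2 response was examined in mouse embryonic stem (ES) cells and in isogenic differentiated (ED) cells, before and after ionizing radiation (IR). The genes were Nfe2l2, Keap1, Hmox1, Nqo1, Gclc, Gclm, Srxn1, Txnrd1, Sod2 and Cat, chosen by name as all probes whose transcript accession belongs to one of these symbols in RefSeq, out of 19259 genes that RefSeq named on the array. They had 16 probes, 4 each for Keap1 and Txnrd1 and 1 each for the others. The ES cells were early passage, wild-type cells isolated from blastocysts and grown without feeder cells in medium with leukemia inhibitory factor (LIF). The ED cells were the same cells kept without LIF and, per the study's methods, without beta-mercaptoethanol, until stem cell markers were lost. Groups ESRE and EDRE were collected 15 min after 10 Gy of X-rays, and groups ESRL and EDRL 4 h after that dose, whereas ES and ED were not irradiated. Each of the 6 groups had 3 samples, each labeled with Cy3 and hybridized to 1 Agilent array. No source used here says that the 3 samples of a group came from separate cultures, so the p-values measure only the spread between these samples, which may be technical.

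NRF2, the protein of Nfe2l2, is a transcription factor that is held low by KEAP1, an adaptor that passes it to a ubiquitin ligase for degradation. Oxidants and electrophiles modify cysteines of KEAP1, after which NRF2 accumulates, pairs with a small MAF protein and binds antioxidant response elements of genes for quinone reduction, glutathione synthesis, the thioredoxin system and heme breakdown. IR forms reactive oxygen species in cells, and beta-mercaptoethanol in culture medium is a thiol that lets cells take up cysteine without the cystine transporter Slc7a11. As ED cells lacked both LIF and this thiol, differentiation and the change of medium cannot be told apart in ED against ES.

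Promoter sequences are shown for Nfe2l2 and Keap1, the pair at the head of the pathway, and for Nqo1 and Txnrd1. These are the target genes with the clearest difference between ED and ES in each direction under the main scaling of the arrays. The difference of Txnrd1 depended on that scaling, as given below. Of the windows of Txnrd1, only that with a match to the core named below is shown. They are the 300-base windows around the gene's start in RefSeq (build GRCm38.p6), read 5′ to 3′ on the gene's strand, and capitals mark a match to TGACNNNGC, the core of the antioxidant response element, on either strand.
Nfe2l2 (chr2:75704614-75704913, minus strand): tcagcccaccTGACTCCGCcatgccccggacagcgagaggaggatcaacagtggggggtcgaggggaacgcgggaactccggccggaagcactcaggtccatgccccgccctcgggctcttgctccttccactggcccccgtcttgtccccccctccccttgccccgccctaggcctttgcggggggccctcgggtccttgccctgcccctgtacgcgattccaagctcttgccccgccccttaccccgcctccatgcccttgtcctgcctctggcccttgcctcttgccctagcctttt
Keap1 (chr9:21239283-21239582, minus strand): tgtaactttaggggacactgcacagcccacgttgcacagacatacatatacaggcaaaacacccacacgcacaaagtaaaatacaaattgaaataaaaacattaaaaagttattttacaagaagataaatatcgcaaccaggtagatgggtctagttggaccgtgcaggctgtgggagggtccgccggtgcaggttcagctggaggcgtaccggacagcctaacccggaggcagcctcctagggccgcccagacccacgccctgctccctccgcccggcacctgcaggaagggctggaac
Nqo1 (chr8:107403156-107403455, minus strand): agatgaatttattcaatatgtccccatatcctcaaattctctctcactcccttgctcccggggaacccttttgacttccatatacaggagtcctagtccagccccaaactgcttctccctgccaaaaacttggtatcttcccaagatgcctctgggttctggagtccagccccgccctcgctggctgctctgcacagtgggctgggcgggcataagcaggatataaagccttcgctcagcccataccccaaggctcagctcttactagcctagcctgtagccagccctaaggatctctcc
Txnrd1 (chr10:82858956-82859255, plus strand): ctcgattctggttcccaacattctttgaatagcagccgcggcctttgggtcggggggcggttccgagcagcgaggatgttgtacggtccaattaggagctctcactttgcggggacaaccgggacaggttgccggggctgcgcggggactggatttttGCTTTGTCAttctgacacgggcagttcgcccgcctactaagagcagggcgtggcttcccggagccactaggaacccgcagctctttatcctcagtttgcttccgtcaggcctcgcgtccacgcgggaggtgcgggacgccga
The core was found in 4 of the 10 windows of the 8 genes in the table, those of Nfe2l2 and Gclm, that of Srxn1, and 1 of the 3 windows of Txnrd1, and in 12.4% of the 32851 promoter windows of all genes. The match of Nfe2l2 began at position -240 from the start and lay on the gene's own strand, and that of Txnrd1 at -92 on the opposite strand. The opening letters TGAC also occur in AP-1 elements. The windows of Keap1 and Nqo1 held no match, which says only that these letters are not in them. Hmox1 and Gclc had no entry in the table.

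Levels are given as the log2 of the processed signal minus the log2 of the array's 75th percentile, so that a difference of 1 is a 2-fold difference in signal and a level above 0 is a signal above that percentile. Levels were compared between groups for one probe at a time, since the brightness of different probes is not comparable. Where a gene had several probes, the probe well above background on the most arrays, or then the brighter, was used, and the other probes of Keap1 and Txnrd1 are given where they differ from it. A gene is called where the Benjamini-Hochberg adjusted p of limma's test was under 0.05. The test drew on all 18 arrays, with the spread of a probe estimated over all groups together, also those not compared. Outlier spots, as marked by the software of the scanner, were left out of the fit and, because such marks fell on 20.1% of spots with a level of 2 or over and on 5.90% of dimmer spots, changes are also given with these spots kept where a gene could not otherwise be tested or a call of the 10 genes differed. Of the 180 spots of the probes used, 1 per gene, 44 were marked, all as non-uniform, with the single probe of Nfe2l2 marked on 16 of the 18 arrays and that of Srxn1 on 15. Over all 16 probes, 75 of 288 spots were marked. Among them 1 spot, Cat on EDRE replicate 3, was not well above background, and 0 were saturated.

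The arrays of EDRE replicates 2 and 3 and of ESRL replicate 1 stood apart. The 75th percentile of their signals was 875, 1155 and 1952 in the scanner's units, against 2806 to 4268 on the other arrays, and EDRE replicates 2 and 3 had 24.4% and 23.8% of spots marked as outliers, against 3.33% to 11.1% elsewhere. Arrays were scanned at 6 times, and no time held a group together with its unirradiated or undifferentiated control, so that scan time and group cannot be told apart within any comparison with ES or ED. The labels of the cells were borne out by stem cell genes. Of 8 such genes, 7 were tested and 6 were lower in ED than in ES, Pou5f1 by a log2 change of -10.29, with Klf4 not called (0.05), and their summed level was 9.03 to 9.05 on the ES arrays and 4.12 to 4.52 on the ED arrays. Of 7 mesenchymal genes, 6 were higher in ED and Thy1 was lower, and their summed level went from between 4.98 and 5.06 to between 8.67 and 9.03. All 3 endoderm genes tested were lower, as was 1 of 4 neural genes, and 0 of 2 blood genes were called, with the summed level of the blood genes at -3.93 to -2.75 over both groups. In these bulk samples, a change in the share of a kind of cell and a change of RNA per cell cannot be told apart, and the part of the change of cell type in the results below was not tested.

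ED against ES asked how the pathway differed between differentiated and stem cells without IR. Keap1 and Nqo1, the NRF2 inhibitor and the NAD(P)H quinone oxidoreductase, were higher in ED, Txnrd1, the cytosolic thioredoxin reductase, was lower, and Hmox1 and Sod2 were lower by smaller margins. Of the 9 genes tested, 2 were called higher, where 19.8% of all genes tested were, and 3 lower, where 37.4% were. With outlier spots kept, Nfe2l2 could be tested too and was called higher, Sod2 was no longer called, and 3 of 10 were higher (19.3% of all genes) and 2 lower (36% of all genes). These shares of members do not stand far from those of all genes.

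Keap1 was at -0.28, -0.08 and -0.14 on the 3 ES arrays and at 0.86, 1.05 and 1.28 on the ED arrays. The groups did not overlap, and Keap1 rose by 1.23 on the log2 scale (SE 0.20, 95% interval 0.80 to 1.66, adjusted p = 0.000167). Its other 3 probes, named for other transcript variants and possibly sharing sequence, rose by 1.07, 1.23 and 1.34. Over all 6 groups, the mean level of Keap1 rose in the order ESRE (-0.63), ESRL (-0.43), ES (-0.17), ED (1.06), EDRL (1.34) and EDRE (1.89), and every ED, EDRE and EDRL array lay above every ES, ESRE and ESRL array.

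Nfe2l2 was at 2.40, 2.56 and 2.66 on the ES arrays and at 3.38, 3.82 and 3.96 on the ED arrays, with all 6 spots marked as outliers. The ED levels lay above the ES levels, and with these spots kept Nfe2l2 rose by 1.18 (SE 0.47, 95% interval 0.19 to 2.17, adjusted p = 0.0461). With scan time as a random block the change was 1.07 (adjusted p = 0.293), and the call was lost.

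Nqo1, which reduces quinones and is among the best known NRF2 targets, was at 1.86, 1.82 and 1.75 in ES and at 2.94, 2.79 and 2.77 in ED. The spread within each group was small beside the step between them, and Nqo1 rose by 1.02 (SE 0.18, 95% interval 0.63 to 1.42, adjusted p = 0.000366). Its means rose in the order ESRE (1.43), ES (1.81), ESRL (2.02), ED (2.83), EDRL (3.19) and EDRE (3.45), and again the arrays of differentiated cells all lay above those of stem cells.

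Hmox1, the inducible heme oxygenase, was at 3.77, 3.15 and 3.21 in ES and at 2.60, 2.64 and 2.88 in ED. All ED levels were below all ES levels, and Hmox1 fell by 0.67 (SE 0.23, adjusted p = 0.0245). Without ES replicate 1, which was the highest, or without ED replicate 1 or 2, the adjusted p passed 0.05, up to 0.129.

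The subunits of glutamate-cysteine ligase, the first enzyme of glutathione synthesis, were not called. Gclc, the catalytic subunit, was at 0.89, 1.71 and 1.77 in ES and at 2.17, 1.87 and 1.46 in ED, a change of 0.38 (95% interval -0.30 to 1.06, adjusted p = 0.36). Gclm, the modifier subunit, was at 3.52, 3.38 and 3.38 in ES, the first of them an outlier spot, and at 3.64, 3.37 and 3.49 in ED, a change of 0.12 (95% interval -0.22 to 0.47). The groups overlapped for both genes.

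Txnrd1 was at 5.63, 5.36 and 5.61 in ES, the second of them an outlier spot, and at 4.39, 4.74 and 4.66 in ED. The groups did not overlap, and Txnrd1 fell by 1.02 (SE 0.19, 95% interval -1.43 to -0.61, adjusted p = 0.000598). Of its other 3 probes, 2 fell, by 1.12 and by 1.03, and the last, marked as an outlier on 17 arrays, was at -1.63 with outlier spots kept. The means of Txnrd1 rose in the order ED (4.60), EDRL (4.69), EDRE (4.83), ES (5.53), ESRL (5.55) and ESRE (5.93), so that every array of differentiated cells lay below every array of stem cells. Srxn1, which restores overoxidized peroxiredoxins, was at 2.20, 2.31 and 2.08 in ES and at 1.83, 2.23 and 2.27 in ED. These overlapped, and its change was -0.08 with outlier spots kept (95% interval -0.85 to 0.68).

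Sod2, the mitochondrial superoxide dismutase, was at 0.82, 0.82 and 0.86 in ES and at 0.23, 0.37 and 0.37 in ED. It fell by 0.51 (SE 0.19, adjusted p = 0.0349), with no overlap, and the call was lost without any 1 of these 6 arrays. Cat, the peroxisomal catalase, was at -2.94, -2.75 and -2.87 in ES and at -3.56, -3.61 and -3.82 in ED. The groups did not overlap, but the change of -0.81 (SE 0.34, adjusted p = 0.0561) was not called. This SE rests on the spread over all groups, and the SD of Cat was 0.095 in ES, 0.14 in ED and 1.00 in EDRE.

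**Figure D1:**
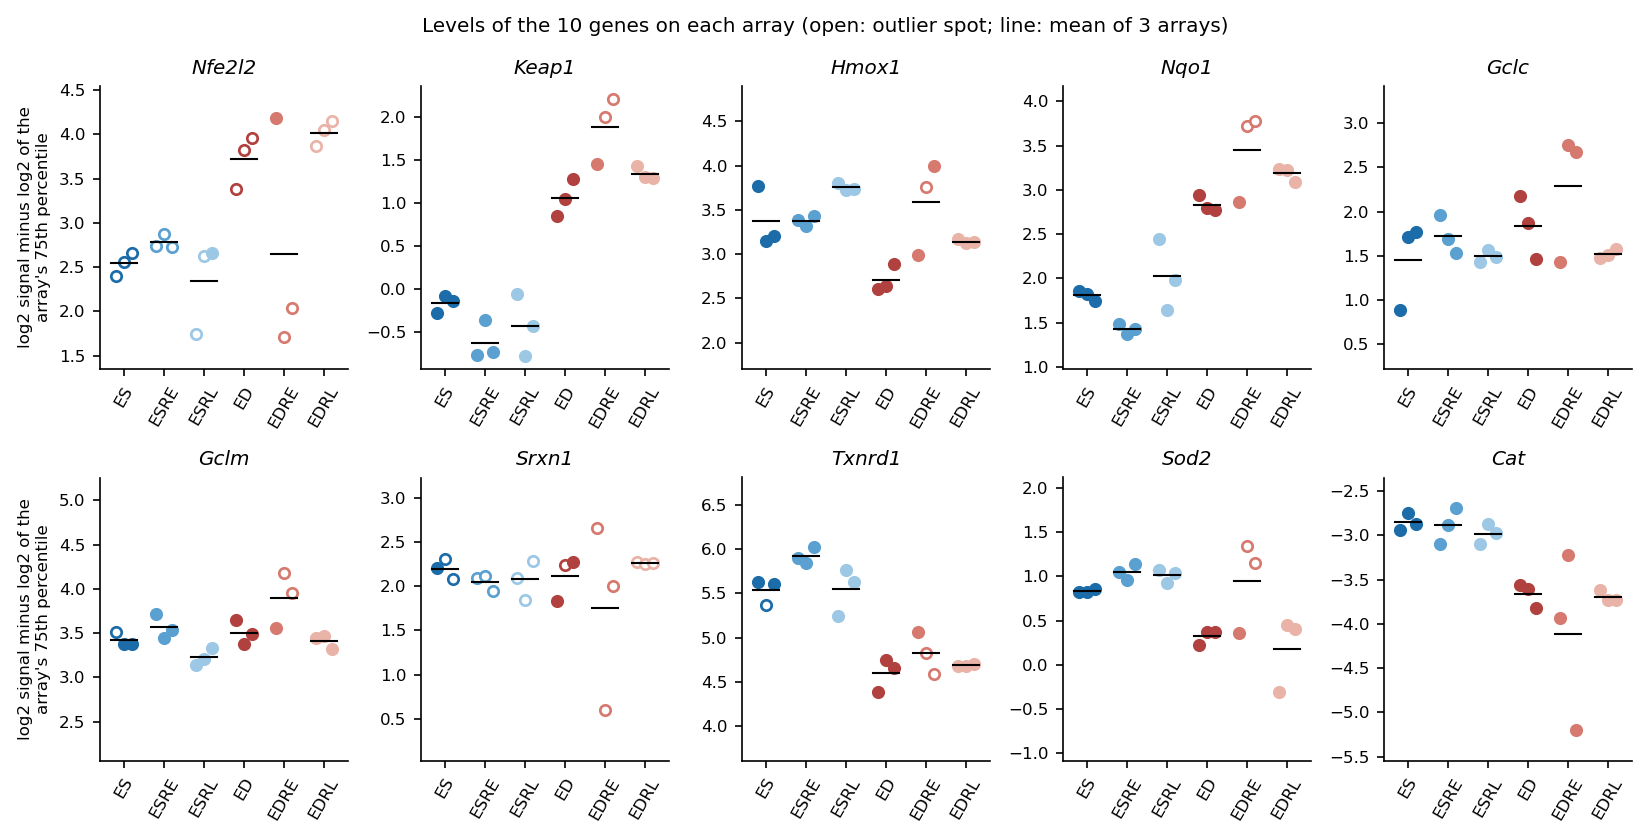
Level of the 10 genes on each of the 18 arrays, as log2 signal minus the log2 of the array's 75th percentile, by group and with replicates 1 to 3 from left to right. Points are arrays, open points are spots marked as outliers, and lines are means of 3 arrays. The levels of Keap1 and Nqo1 in all groups of differentiated cells lie above those of stem cells. Those of Txnrd1 lie below under this scaling, but not with each array set to its median.

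The scaling of the arrays set the size of these differences. With each array set to its 75th percentile, the median change of all probes tested was -0.19, and with each array set to its median signal it was 0.46. Under the median, Keap1 (1.88, adjusted p = 3.56e-05) and Nqo1 (1.67, adjusted p = 9.09e-05) were still higher in ED, as was Nfe2l2 with outlier spots kept (1.83, adjusted p = 0.00524), and Gclc (1.03, adjusted p = 0.00685) and Gclm (0.79, adjusted p = 0.0046) were called higher as well. Txnrd1 (-0.38, adjusted p = 0.0918) and Hmox1 (-0.02, adjusted p = 0.951) were no longer called, and Sod2 turned to 0.14 (adjusted p = 0.613). Taken relative to the median change of all probes, the values under the first scaling were 1.42 for Keap1, 1.21 for Nqo1, -0.48 for Hmox1, -0.32 for Sod2 and -0.83 for Txnrd1. Those under the other were nearly the same, with -0.84 for Txnrd1. A scaling shifts all probes of an array alike, so this agreement was fixed by the arithmetic and is no test of the differences.

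Differences between probes on the same array do not depend on scaling, and they were computed for Keap1, Nqo1 and Txnrd1 after the values were seen. The level of Nqo1 minus that of Txnrd1 was between -3.86 and -3.54 on the ES arrays and between -1.95 and -1.45 on the ED arrays, a shift of 1.96 in the mean. That of Keap1 minus Txnrd1 was between -5.91 and -5.45 in ES and between -3.69 and -3.38 in ED, a shift of 2.17. Neither pair of ranges overlapped, which describes these arrays and was not tested. That of Keap1 minus Nqo1 was between -2.14 and -1.89 in ES and between -2.08 and -1.49 in ED, and these overlapped.

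With scan time as a random block, Keap1 (adjusted p = 0.022), Nqo1 (adjusted p = 0.0385) and Txnrd1 (adjusted p = 0.0302) were called, and Hmox1 and Sod2 were not. No ES array shared a scan time with an ED array, so this block cannot separate scan time from cell type. The fit also took 1 correlation within a scan time, 0.68, as known for all probes. These calls are therefore no control for scan time. The ED arrays shared their scan time with ESRE replicate 3, an irradiated stem cell sample. The mean of ED minus that array was 1.80 for Keap1, 1.40 for Nqo1 and 0.99 for Nfe2l2, and it was -1.43 for Txnrd1, -0.72 for Hmox1, -0.82 for Sod2 and -0.97 for Cat, the same signs as against ES. It was 0.31 for Gclc, the same sign as well, whereas Gclm (-0.04 against this array and 0.08 against ES, with outlier spots kept) and Srxn1 (0.17 and -0.08) turned sign.

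**Figure D2:**
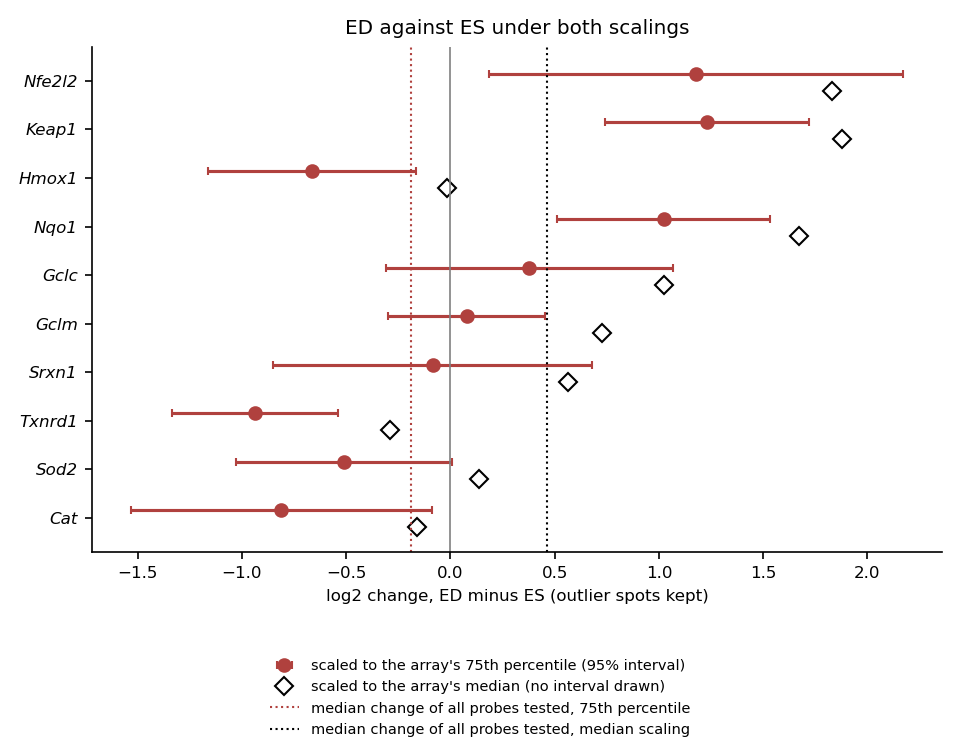
Log2 change of each gene in ED minus ES with outlier spots kept, with 95% intervals where arrays were set to their 75th percentile (circles) and as points where they were set to their median (diamonds). Dotted lines mark the median change of all probes tested under each scaling, -0.19 and 0.46, and Keap1, Nfe2l2 and Nqo1 lie to the right and Txnrd1 to the left of it under both. That the scalings agree in this is fixed by the arithmetic, since a scaling shifts all probes of an array alike.

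The other genes of the pathway moved over a far wider range than the 10 genes. Of 61 further genes in 7 lists, 55 were tested in ED against ES, 17 were higher, where 19.8% of all genes were, and 14 lower, where 37.4% were, and their median change was 0.15 beside -0.19 for all probes. Under median scaling 30 were higher, where 34.9% of all genes were, and 9 lower, where 24.8% were. The glutathione list held the largest changes, with 6 of 17 higher and 8 lower. Slc7a11, the cystine transporter subunit, rose by 6.91 (SE 0.31, adjusted p = 2.48e-10), from -3.23, -3.65 and -3.35 in ES to 3.08, 3.63 and 3.78 in ED. Its partner Slc3a2 rose by 2.74 and Gpx8, a glutathione peroxidase family member of the endoplasmic reticulum, by 4.38. In contrast, the glutathione peroxidases Gpx2 (-6.38, SE 0.24) and Gpx3 (-6.30, SE 0.71, with 1 ES spot left after outliers) were lower, as were Gpx4 (-1.23), which reduces lipid peroxides, Gpx1 (-0.88) and Gss (-0.68), the final enzyme of glutathione synthesis. Under median scaling Gpx1 (-0.23), Gpx4 (-0.58) and Gss (-0.03) were not called.

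Of the 10 NRF2 regulators, 2 were higher, the small MAF gene Maff (1.12) and the ligase subunit Rbx1 (0.92), and 2 lower, Nfe2l3 (-6.25), a relative of Nfe2l2, and Bach1 (-0.80), a repressor of the same elements, the last not called under median scaling (-0.15). Of 11 thioredoxin and peroxiredoxin genes, Prdx4 (0.79) was higher and Txnip (-2.96), an inhibitor of thioredoxin, and Prdx6 (-0.94) were lower, Prdx6 not under median scaling (-0.30). Sod1 (-2.32), the cytosolic superoxide dismutase, was lower. For NADPH supply, Me1 (1.33) and G6pdx (0.89) were the 2 of 4 called, both higher. Of 6 heme and iron genes, Fth1 (1.16), the ferritin heavy chain, and Fech (1.06) were higher. Of 5 detoxification genes, Aox1 (5.20), Ephx1 (3.13), Osgin1 (2.53) and Aldh3a1 (0.66) were higher and Cbr3, a carbonyl reductase, was lower (-5.38). With scan time as a random block, 11 of the 61 genes were higher and 10 lower, Slc7a11, Aox1, Gpx8, Gpx2, Gpx3 and Cbr3 among them. In that fit 8173 of the 37246 probes on the array were called in either direction, though not all were tested. With outlier spots left out, 28636 probes were tested in this comparison. The share called among probes tested was thus larger than among all probes, and the counts of 11 and 10 are no result about these genes in particular.

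**Figure D3:**
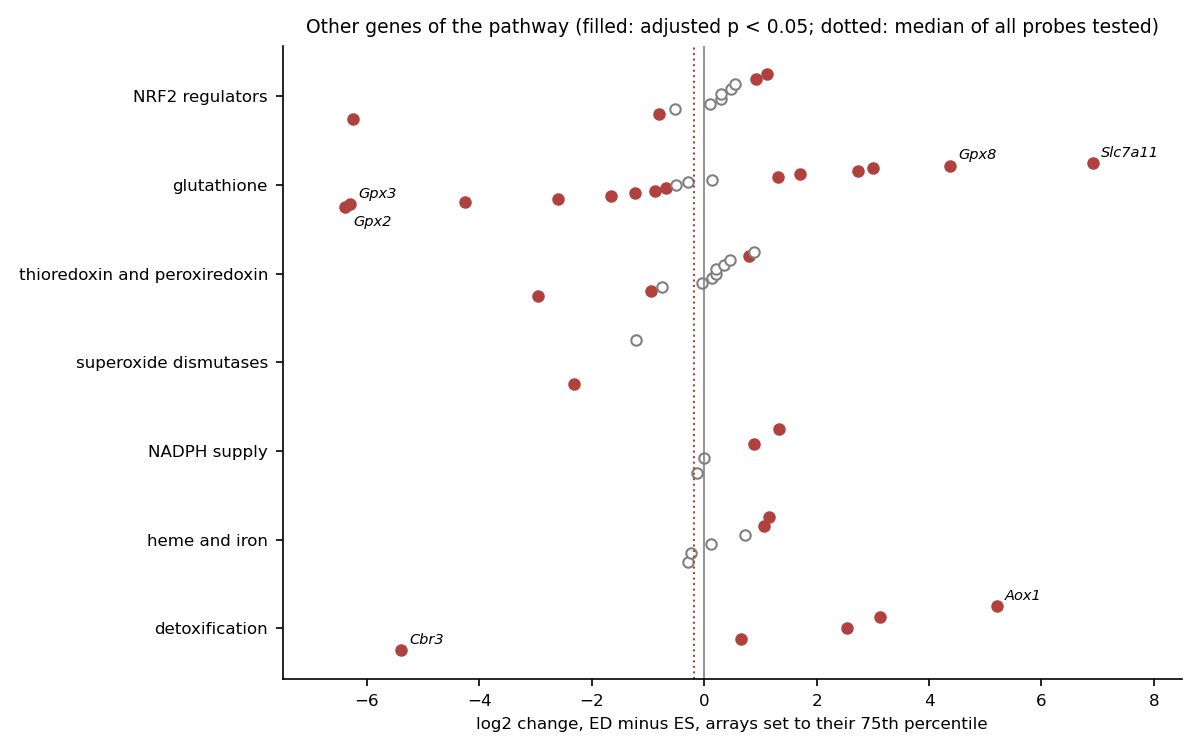
Log2 change in ED minus ES of the further genes of the pathway by list, with arrays set to their 75th percentile. Filled points have an adjusted p under 0.05, the dotted line is the median change of all probes tested (-0.19), and the points run from -6.38 for Gpx2 to 6.91 for Slc7a11.

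The comparisons with IR asked whether the pathway moved within 15 min or 4 h of 10 Gy in either cell type. None of the 8 genes tested was called in any of the 4 comparisons with the unirradiated cells of the same type, where the share of all genes tested that was called was 0.553% for ESRE and 7.42% for ESRL, and 7.14% for EDRE and 2.86% for EDRL. Nfe2l2 and Srxn1 could not be tested, for want of spots not marked as outliers. At an unadjusted p under 0.05 there were 1, 0, 1 and 0 genes. Of all probes tested, 2633 of 27875, 6985 of 27966, 6375 of 24490 and 3543 of 25412 passed that limit in the same order. ESRE and ESRL share the ES arrays as control, and EDRE and EDRL the ED arrays. On the same arrays, 2 of 6 p53 target genes, which respond to DNA damage, were higher at 4 h in ESRL, Mdm2 (0.87, adjusted p = 0.00387) and Trp53inp1 (1.15, adjusted p = 0.00802), and 0 were lower, with Ccng1 at 0.30, Sesn1 at -0.22, Cdkn1a at -0.73 and Sesn2 at -0.96. In EDRL 3 of the 5 tested were higher, Mdm2 (1.39, adjusted p = 0.000109), Ccng1 (1.61, adjusted p = 0.00363) and Trp53inp1 (2.22, adjusted p = 0.00016), and Cdkn1a (0.57) and Sesn2 (0.47) were not called. In ESRE 0 of the 6 were called and in EDRE 1.

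Setting arrays to their median moved the median change of all probes from -0.08 to 0.01 in ESRE, from -0.16 to 0.15 in ESRL and from -0.09 to 0.06 in EDRL, and called none of the genes there. In stem cells, Keap1 was the gene with an unadjusted p under 0.05 at 15 min. It was at -0.77, -0.37 and -0.74 in ESRE, all below the ES arrays, a change of -0.46 (95% interval -0.89 to -0.03, adjusted p = 0.484), and its other 3 probes were at -0.35, -0.46 and -0.61 with adjusted p of 0.46 or more. At 4 h it was at -0.06, -0.78 and -0.44, and overlapped ES. Nqo1 was at 1.49, 1.37 and 1.43 in ESRE, all below ES, a change of -0.38 (95% interval -0.77 to 0.01), and at 2.45, 1.64 and 1.98 in ESRL, which overlapped ES, a change of 0.21. Hmox1 was at 3.39, 3.32 and 3.43 in ESRE and at 3.81, 3.73 and 3.74 in ESRL. The changes of Hmox1 against ES were 0.01 (95% interval -0.48 to 0.50) and 0.38 (95% interval -0.11 to 0.87), and the ES array at 3.77 lay within the ESRL range.

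The remaining genes in stem cells moved little on average. Txnrd1 was at 5.90, 5.85 and 6.03 in ESRE, above ES, with a change of 0.31 (95% interval -0.10 to 0.71). With outlier spots kept, its mean was 5.53 in ES and 5.55 in ESRL. Of its other probes, 2 had means of 5.36 and 5.25 in ES, 5.62 and 5.66 in ESRE, and 5.51 and 5.59 in ESRL. The last, with all these spots marked as outliers, went the other way, from 3.58 to 3.38 and 2.83. Sod2 was at 1.05, 0.96 and 1.14 in ESRE and at 1.07, 0.93 and 1.04 in ESRL, above the ES arrays at both times, with changes of 0.21 and 0.18 that were not called. Gclc, Gclm and Cat had changes between -0.15 and 0.27 at both times. With outlier spots kept, Nfe2l2 had changes of 0.24 in ESRE and -0.20 in ESRL, with intervals of -0.75 to 1.23 and -1.19 to 0.79, and Srxn1 of -0.15 and -0.12.

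In differentiated cells, neither Hmox1 nor Keap1 was called at 15 min unless outlier spots were kept or, for Hmox1, arrays were set to their median. Hmox1 was at 2.99, 3.76 and 4.00 in EDRE, the second an outlier spot, all above the ED arrays, with a change of 0.79 (SE 0.25, 95% interval 0.25 to 1.33, adjusted p = 0.067). With outlier spots kept, Hmox1 (0.88, adjusted p = 0.0344) and Keap1 (0.83, adjusted p = 0.0367) were called, 2 of 10 genes where 7.32% of all genes were higher. Without EDRE replicates 2 and 3 the change of Hmox1 was 0.29 (adjusted p = 0.528) and that of Keap1 0.39 (adjusted p = 0.355). Keap1 was at 1.46, 2.0 and 2.21 in EDRE and Nqo1 at 2.86, 3.73 and 3.77, with the spots of replicates 2 and 3 marked as outliers for each, so that 1 array of EDRE entered the fit. The other 3 probes of Keap1, likewise with 1 array of EDRE in the fit, had changes of 0.32, 0.18 and 0.15, and of 0.75, 0.77 and 0.60 with outlier spots kept, of which none was called. Txnrd1 was at 5.07, 4.82 and 4.59 in EDRE, the last 2 of them outlier spots, and with these kept it overlapped ED with a change of 0.23 (adjusted p = 0.388), while of its other probes 1 was then called (0.59, adjusted p = 0.0477). Under median scaling, which moved the median change of all probes in EDRE from 0.03 to 0.29, Hmox1 (0.98, adjusted p = 0.0235), on 2 EDRE arrays, and Txnrd1 (0.81, adjusted p = 0.0341), on 1, were called higher, as 11.9% of all genes were. On the arrays of replicates 2 and 3, 15 of the 20 spots of the probes used for the 10 genes were marked.

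Nfe2l2 was at 4.19 on EDRE replicate 1, above all ED arrays, and at 1.70 and 2.03 on replicates 2 and 3, below all ED arrays. Srxn1 was at 2.66 on the first, above all ED arrays, and at 0.60 and 2.0 on the others, the lower of them below all ED arrays. The 3 EDRE arrays thus did not lie to 1 side of ED for either gene. Cat was at -3.93, -3.22 and -5.20, Gclc at 1.43, 2.75 and 2.67, Gclm at 3.56, 4.17 and 3.96 and Sod2 at 0.37, 1.34 and 1.15. For Gclc, Gclm and Sod2, replicates 2 and 3 lay above all ED arrays and replicate 1 did not.

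At 4 h in differentiated cells, the 3 arrays agreed closely for most genes. Hmox1 was at 3.17, 3.13 and 3.13 in EDRL, all above ED, with a change of 0.43 (95% interval -0.05 to 0.91, adjusted p = 0.428). Nqo1 was at 3.24, 3.23 and 3.09, all above ED, with a change of 0.35 (95% interval -0.03 to 0.74, adjusted p = 0.416). Keap1, at 1.43, 1.31 and 1.29, also lay just above ED, with a change of 0.28, but its other 3 probes overlapped ED, with changes of 0.03, -0.24 and -0.08. Without the 3 arrays that stood apart, Nqo1 was called (adjusted p = 0.0468), where 6.48% of all genes were higher, and Hmox1 (adjusted p = 0.0804) and Keap1 (adjusted p = 0.248) were not. Sod2 was at -0.30, 0.46 and 0.40, and Gclc, Gclm, Txnrd1 and Cat had changes between -0.31 and 0.09, all overlapping ED. This held for the probe of Txnrd1 used. Another of its probes was at 4.50, 4.45 and 4.35 in EDRL, above ED (4.25, 4.33 and 4.14). A further probe was at 4.52 and 4.49 on unmarked spots, above ED (4.41, 4.12 and 4.13), and at 2.49 on an outlier spot. The last probe overlapped ED.

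**Figure D4:**
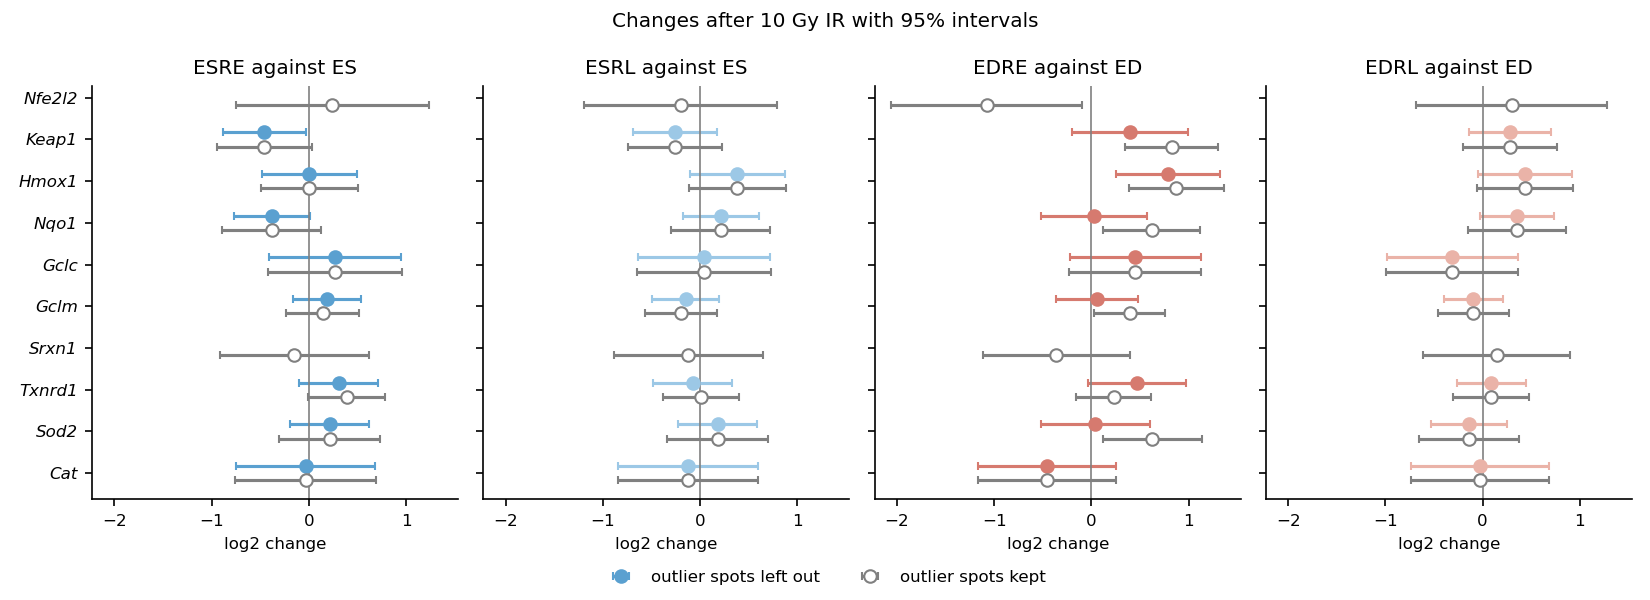
Log2 change of each gene after 10 Gy IR with its 95% interval, at 15 min (ESRE, EDRE) and 4 h (ESRL, EDRL) against unirradiated cells of the same type. Filled points leave out outlier spots and open points keep them, and Nfe2l2 and Srxn1 have open points alone. Open and filled points differ most in EDRE, where Sod2 is at 0.63 and 0.04 and Nqo1 at 0.62 and 0.03.

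Between the 2 times after IR, no gene was called, where 4.6% of all genes were called in ESRL against ESRE and 11.8% in EDRL against EDRE. Nqo1 was higher in ESRL than in ESRE on every array, with a change of 0.59 (SE 0.18, adjusted p = 0.0696) over all arrays and 0.38 (adjusted p = 0.173) among the 2 arrays of each group scanned at 1 time. Gclm (-0.34) and Txnrd1 (-0.38) were lower on every ESRL array than on any ESRE array, with adjusted p of 0.176 and 0.199. This held for the probe of Txnrd1 used, whereas 2 other probes of the gene overlapped between the groups, with changes of -0.17 and -0.07. In EDRL against EDRE with outlier spots kept, Nfe2l2 was called higher (1.38, adjusted p = 0.0446), as 10.1% of all genes were, and Sod2 lower (-0.77, adjusted p = 0.0353), as 14.2% were, and the groups overlapped for both. Of the other probes of Keap1, 2 were then lower (-1.01, adjusted p = 0.0272, and -0.68, adjusted p = 0.0369). Against EDRE replicate 1, which was scanned together with EDRL, the difference was -0.17 for Nfe2l2 and -0.18 for Sod2.

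Whether IR acted differently in the cell types was tested as the interaction, coded as the change in stem cells minus that in differentiated cells. None of the 8 genes was called at 15 min, where 1.96% of all genes were, or at 4 h, where 1.26% were. Of all probes tested, 5252 of 28098 had an unadjusted p under 0.05 at 15 min and 4305 of 28375 at 4 h. At an unadjusted p under 0.05 there were 2 genes at 15 min, Keap1 (-0.85, 95% interval -1.60 to -0.10, adjusted p = 0.21) and Hmox1 (-0.78, 95% interval -1.52 to -0.05, adjusted p = 0.24), and 0 at 4 h. The value of Keap1 rests on 1 EDRE array, and without the 3 arrays that stood apart that of Hmox1 was -0.28 (adjusted p = 0.617).

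Of the 61 further genes, 2 of 53 tested were higher in ESRE and 0 lower, where 0.553% of all genes were called. They were Blvrb, a biliverdin reductase (1.93, adjusted p = 0.0402), and Glrx, a glutaredoxin (1.81, adjusted p = 0.0041). Of the ES spots of Blvrb 1 was not an outlier, and with all kept its change was 2.01 in ESRE (adjusted p = 0.0161) and 1.67 in ESRL (adjusted p = 0.00719). Glrx was at -0.26, -0.25 and -0.21 in ES, at 1.5, 1.45 and 1.74 in ESRE and at 0.57, 1.08 and 1.23 in ESRL, and the groups did not overlap. In ESRL, where 7.42% of all genes were called, 4 of 53 were higher and 0 lower, among them Blvrb (1.53), Glrx (1.20) and Cbr3 (0.81). With outlier spots kept Glrx was not called at either time (adjusted p = 0.181 and 0.164), although no ES, ESRE or ESRL spot of it was marked, and its SE was then 0.50 against 0.19. In EDRE, where 7.14% of all genes were called, 3 of 49 were higher and 0 lower, Osgin1 (1.15), Tkt (0.85) and Prdx2 (0.77), and without replicates 2 and 3 Osgin1 (0.44, adjusted p = 0.136) and Prdx2 (0.16, adjusted p = 0.59) were not called. With outlier spots kept, 7 of 56 were higher in EDRE, where 7.32% of all genes were, and 4 lower, where 5.34% were. In EDRL 0 of 53 were called, where 2.86% of all genes were. Without the 3 arrays that stood apart, 6 of the 61 were higher, where 6.48% of all genes tested were. Between the times, Ephx1 was higher in ESRL than in ESRE (1.14, adjusted p = 0.00323), also with scan time as a random block (adjusted p = 0.000327). It was the 1 gene of 52 called, where 4.6% of all genes were. Of 50 tested in EDRL against EDRE, where 11.8% of all genes were called, Aldh3a1 (0.79) was higher and 4 were lower, among them Osgin1 (-1.04), Rbx1 (-0.96) and Prdx2 (-0.78), and these 4 named genes were not called without the 3 arrays. With outlier spots kept, 8 of 58 were higher and 8 lower there, where 10.1% and 14.2% of all genes were. With scan time as a random block, 0 of the 61 were called against unirradiated cells of the same type.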

How the data were processed

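RNA of 18 samples was labeled with Cy3 and hybridized to 1 Agilent array each. The intensity values are the processed signals the authors deposited, background-subtracted by Agilent Feature Extraction (10.7.3.1 in the file headers, 9.1 in the submitters' processing notes) without scaling between arrays. A matrix of the authors holds log2 values of 30133 probes, deposited with the arrays, each the log2 signal minus a constant per array. After removal of control spots, 37246 probes remained, of which RefSeq named 22216. Signals were set to the 75th percentile of the array on the log2 scale. Probes that were well above background on every array of 1 or more of the groups compared were tested with limma 3.58.1 in R 4.3.3, with variances moderated over all probes and Benjamini-Hochberg adjustment over all probes tested, and the procedure was tested on simulated data. The number of arrays limits the precision. All 16 probes of the 10 genes were examined, and 1 per gene is described in full. Further genes were counted by list, and those named were, per comparison, the 3 that rose most and the 3 that fell most among genes called, without overlap and well above background throughout, other further genes being named after their values were seen. The genes and lists were chosen with earlier results of these data known. Alternatives changed the scaling, background correction, detection filter, outlier spots, block, test, change required and arrays. Replicate numbers were not taken as pairs, since the deviations of same-numbered arrays from their group means had correlations between -0.34 and 0.22 over 45 pairs of arrays, with 4 above 0.1. Normexp used the median signals.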

Additional observations from a re-analysis of the deposited data

How the results depend on the processing

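Of the 10 genes, 5 were called in ED against ES, where 57.3% of all genes tested were, and 0 in the other 8 comparisons. Where no share of all genes stands beside a count below, the count is no result about these genes in particular. In ED against ES the number was 3 with scan time as a random block (outlier spots kept), which cannot separate scan time from cell type, and 3 where a log2 change over 1 was required. Keap1 and Nqo1 were called under all 10 alternatives and without each of the 18 arrays in turn. Under median scaling and with the authors' log2 values, Txnrd1 and Hmox1 were lost and Sod2 turned to 0.137 and 0.136. The authors' constant per array lay close to the array's median log2 signal, 8.10 beside 8.11 on ES replicate 1 and 7.80 beside 7.81 on ED replicate 1. These alternatives are thus nearly the same scaling, and their agreement is no further support. Hmox1 was also lost with the scan time block, the methods' t-test and the change over 1 required, and Sod2 with the scan time block, outlier spots kept and the change over 1 required. In EDRE against ED the number was 2 under median scaling, both higher, where 11.9% of all genes were higher. It was 2 with outlier spots kept, where 12.7% of all genes were called, and 4 with the authors' log2 values. In EDRL against EDRE the number was 2 with outlier spots kept, where 24.3% of all genes were called, and 1 with the authors' values. In ESRE against ES it was 1 with the methods' t-test once adjusted by Benjamini-Hochberg. Without EDRE replicates 2 and 3 and ESRL replicate 1, a choice made after seeing the data, it was 6 in ED against ES and 1 in EDRL against ED. Leaving out 1 array at a time gave 3 to 6 genes in ED against ES, 0 to 2 in EDRE against ED and in EDRL against EDRE, 0 to 1 in ESRL against ESRE and in the interaction at 15 min, and 0 in the others. With the replicate block, a fit that treats same-numbered arrays as pairs, the numbers were 5 and 0 in all others, as without it. Median scaling and outlier spots kept together, and scan time with outlier spots kept, were also chosen after seeing the data. Normexp with an offset of 50 and the stricter detection filter each gave 5 genes. The spot of Cat on EDRE replicate 3 was not well above background.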
